A study of Mus musculus with 6 samples.

Results

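The genes described here make, break down and read the cyclic nucleotides cAMP and cGMP in bone marrow mesenchymal stem cells (MSCs) with or without a deletion of Pcif1, the enzyme that methylates an adenosine next to the mRNA cap (m6Am). Members were taken by a rule on gene symbols that was set with earlier results of these data known. It covers adenylyl cyclases (Adcy), guanylyl cyclases (Gucy1, Gucy2 and the natriuretic receptors Npr1 to Npr3), phosphodiesterases (Pde), the subunits of kinase A (Prkar and Prkac), kinase G (Prkg) and the exchange factors known as Epac (Rapgef3 and Rapgef4). The rule found 53 Ensembl IDs under 52 symbols among the 20071 IDs of the count table, of which 26 act on cAMP, 18 on cGMP and 9 are phosphodiesterases that hydrolyse both. Npr3 and Pde6d were kept with the cGMP genes, although Npr3 clears natriuretic peptides without making cGMP and Pde6d encodes a carrier of prenylated proteins.

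The control libraries, labelled WT, came from Pcif1fl/fl mice, in which exons of Pcif1 are flanked by loxP sites. The libraries labelled Pcif1 CKO came from Prrx1-Cre;Pcif1fl/fl mice, in which the Prrx1 promoter drives Cre recombinase in limb mesenchyme, so that blood cells carried along in a marrow culture keep the gene. By the study's methods the MSCs were grown from femurs of 6-week-old mice. All cultures were held for 7 days in osteogenic medium whose additives were dexamethasone at 100 nM, ascorbic acid at 50 μg/mL and β-glycerophosphate at 5 mM, and 3 poly(A) RNA libraries were sequenced for each genotype. The labels number the replicates but do not say whether they are separate animals, so p-values measure the spread between these libraries, which may be technical.

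Adenylyl cyclases are switched on by receptors coupled to Gs and off by Gi, and cAMP then frees the catalytic subunits of kinase A from its regulatory subunits or activates Epac. cGMP comes from the soluble cyclase, a dimer of an alpha and a beta subunit that senses nitric oxide, and from the membrane receptors for natriuretic peptides. It is read mainly by kinase G and ended by phosphodiesterases, of which Pde5a is the best known. In the skeleton, C-type natriuretic peptide, its receptor Npr2 and kinase G type 2 (Prkg2) drive growth plate cartilage, while parathyroid hormone acts on osteoblasts through cAMP.

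The letters around the annotated starts are shown first for the 7 called members that have a RefSeq window, because PCIF1 acts only where the first transcribed base is an adenosine and because cAMP acts on promoters through the element TGACGTCA, whose 5-base core is TGACG, or CGTCA on the other strand. The sequences are RefSeq's for GRCm38.p6 and run 5′ to 3′ on the strand of the gene. Capitals mark the annotated first transcribed base and, upstream of it, any 5-base core. Where RefSeq annotates several starts, 1 is shown: the start of Adcy7 with a core near it, the start of Gucy1a1 that lies further into the gene, and the start of Pde1a that has a first A.
Pde5a, plus strand, chr3:122729138-122729167: gggacgaataaaggcaaaagGggagggtct
Npr3, minus strand, chr15:11907362-11907391: aaacattttaaattaactttAatttgcaag
Gucy1b1, minus strand, chr3:82074702-82074781: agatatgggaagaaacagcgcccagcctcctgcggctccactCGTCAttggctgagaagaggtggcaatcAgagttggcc
Gucy1a1, minus strand, chr3:82145064-82145143: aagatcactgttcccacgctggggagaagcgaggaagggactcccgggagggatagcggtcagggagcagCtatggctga
Pde1a, minus strand, chr2:80129403-80129432: ttattcaggaagtgtgctgtAtttttaagt
Adcy7, plus strand, chr8:88282922-88283001: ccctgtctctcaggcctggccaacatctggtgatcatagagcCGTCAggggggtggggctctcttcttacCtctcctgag
Adcy2, minus strand, chr13:68999532-68999611: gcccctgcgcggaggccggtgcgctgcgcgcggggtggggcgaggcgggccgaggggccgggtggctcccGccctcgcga
Gucy1b1, Npr3 and Pde1a have an annotated first A in these windows, whereas Pde5a, Gucy1a1, Adcy7 and Adcy2 start with another base in the windows shown. The core in Gucy1b1 and that in Adcy7 both begin 28 bases before the start. Starts were not measured in these libraries, and the shares of such letters over all genes are given with the promoters at the end.

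The libraries held 20258209 to 28227696 counts. Values of a single gene are in CPM, which sets each count against the total of its library, here adjusted by edgeR's TMM factors, and levels are compared between genes only as CPM per kilobase of exon (GENCODE M21 on GRCm38). The targeted gene was at 42.8, 41.7 and 39.3 CPM in WT replicates 1 to 3 and at 39.2, 37.8 and 39.7 CPM in CKO replicates 1 to 3. The genotypes overlapped, and the log2 fold change of Pcif1 was -0.085 (SE 0.092, adjusted p = 0.645, edgeR), a whole-gene count that cannot show the removal of exons. Xist lay at 232 to 443 CPM in WT and at 0.722 to 1.79 CPM in CKO, and the Y-linked gene Ddx3y at 48.4 to 62.2 against 99.1 to 104 CPM, so the sex of the cells and the genotype cannot be told apart for any result below. WT replicate 3 stood apart, with 3.63% of its counts on mitochondrial genes against 1.40% to 1.57% in the other 5 libraries. It was the highest WT library for 20 of the 41 members tested.

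Of the 53 members, 41 passed edgeR's expression filter and were tested. Of these 41, 8 were lower in CKO at an adjusted p under 0.05, or 19.5%, against 4.51% of all 13733 genes tested, and 2 were higher, or 4.88%, against 2.88%. With a change of at least 2-fold as well, 7 members were lower and 1 higher, against 2.5% and 1.03% of all genes tested. The lower members were Gucy1a1, Gucy1b1, Npr3, Pde5a, Pde9a, Pde1a, Pde3a and Adcy2, and the higher ones were Prkg2 and Adcy7. Every CKO library lay below every WT library in 15 members and above in 5, against 15.7% and 15% of all genes tested. The median log2 fold change of the 41 members was -0.26, against 0.0017 over all genes tested, whose quartiles were -0.20 and 0.18.

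Gucy1a1, Gucy1b1 and Pde9a passed the filter through WT alone, since only their WT libraries reached its minimum, and so could only be called lower. Of the 38 other members 5 were lower, or 13.2%, and 2 were higher, or 5.26%, with a median of -0.18. The cGMP genes held 6 of the 10 calls among 11 tested (5 lower, 1 higher), and without those 3 genes 2 of 8 were lower and 1 higher. The cAMP genes held 2 calls among 24 tested, 1 in each direction, or 4.17% each way, which is near the background. The phosphodiesterases for both nucleotides held 2 calls among 6, both lower. Without WT replicate 3, 13 members were lower and 5 higher, against 10.4% and 11.1% of the 13905 genes then tested: the 10 calls remained and Adcy3, Adcy4, Adcy6, Pde7a and Prkg1 joined the lower genes and Pde10a, Pde1b and Pde3b the higher ones.

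**Figure D1:**
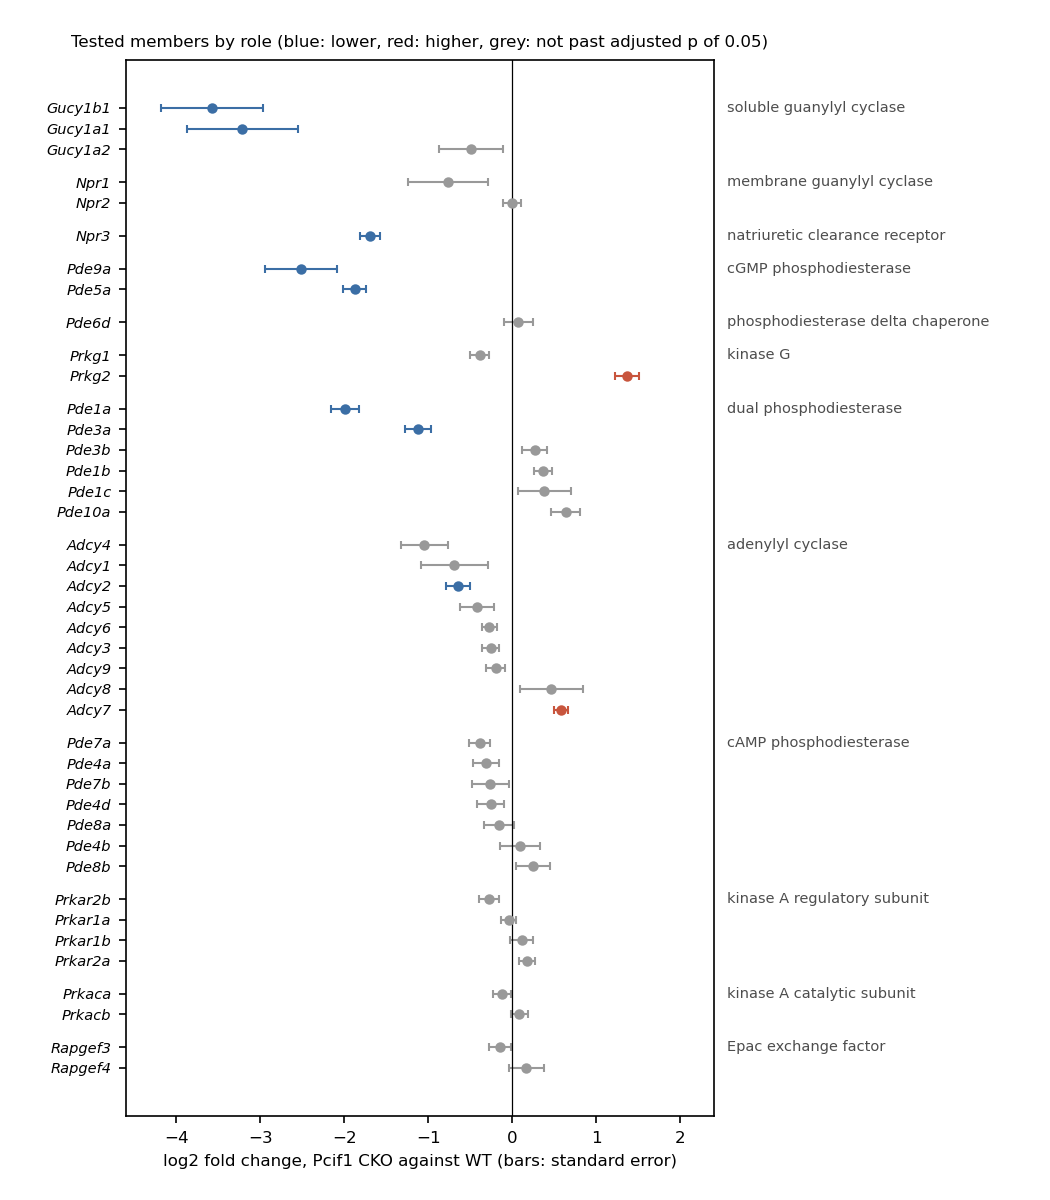
Log2 fold change of each of the 41 tested members, CKO against WT, with its standard error from edgeR as a bar, grouped by role on the vertical axis. The 8 blue points lie left of 0 and the 2 red points right of it, and the subunits of kinase A and Epac cluster within 0.28 of 0.

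Among the enzymes that make cGMP, both main subunits of the nitric oxide receptor were lower in CKO, where they were read by 5 counts or fewer per library. Gucy1b1, the beta subunit that binds heme, was read by 24, 44 and 25 counts in WT replicates 1 to 3 and by 3, 0 and 3 counts in CKO replicates 1 to 3. Gucy1a1, its usual alpha partner, was read by 21, 30 and 21 counts in WT and by 5, 1 and 0 counts in CKO. The genotypes did not overlap for either gene, and the highest CKO library lay far below the lowest WT library. Both genes passed the filter through WT alone, so this separation is not separate evidence of a fall.

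These counts are small, so the sums carry the comparison. Gucy1b1 gathered 93 counts in WT and 6 in CKO, a ratio of 12.5 after scaling (exact 95% interval 5.55 to 35.0), and Gucy1a1 gathered 72 and 6, a ratio of 9.71 (4.25 to 27.3). These intervals cover counting error only, as PCR copies cannot be told from separate molecules. edgeR gave log2 fold changes of -3.58 (SE 0.61, adjusted p = 0.00972) for Gucy1b1 and -3.22 (SE 0.66, adjusted p = 0.0223) for Gucy1a1. The call of Gucy1a1 was lost without WT replicate 1, WT replicate 2, CKO replicate 2 or CKO replicate 3, with adjusted p-values of 0.0566, 0.0813, 0.116 and 0.0709, and its log2 fold change then lay between -3.22 and -2.67. Without CKO replicate 1, which held 5 of its 6 CKO counts, it was -4.96 (adjusted p = 0.0208), so the size of the fall rests on few counts.

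Gucy1b1 (chr3:82032006-82074689) and Gucy1a1 (chr3:82092427-82145789) are neighbours on the minus strand of chromosome 3, 17737 bases apart with 0 annotated genes between them. Gucy1a2, the other alpha subunit, was at 0.437, 0.845 and 0.645 CPM in WT and at 0.495, 0.498 and 0.385 CPM in CKO (log2 fold change -0.49, SE 0.38, adjusted p = 0.515). Its libraries overlapped between the genotypes. Summed per kilobase, the soluble cyclase subunits went from 0.537 ± 0.141 to 0.123 ± 0.036 CPM per kilobase (SD, n = 3 each), the lowest sum of any role in either genotype. In bulk samples, fewer cells of a type and less RNA per cell cannot be told apart.

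Of the membrane cyclases 2 were tested, and 0 were called by edgeR or DESeq2 or had an unadjusted p under 0.05. Npr2, the receptor for C-type natriuretic peptide and the guanylyl cyclase with the highest level per kilobase, was at 48.3, 40.9 and 50.0 CPM in WT and at 47.4, 45.4 and 45.8 CPM in CKO. All 3 CKO values lay inside the WT range, and the log2 fold change was -0.0056 (SE 0.11, adjusted p = 0.985). Npr1, the receptor for atrial and B-type peptides, was low in all libraries, at 0.551 to 0.874 CPM in WT and 0.180 to 0.697 CPM in CKO (log2 fold change -0.77, SE 0.48, adjusted p = 0.412). Gucy2c, Gucy2e and Gucy2g, the receptors of gut and sensory cells, were not tested for lack of counts.

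Npr3, the clearance receptor that takes up natriuretic peptides, fell while Npr2 stayed within its spread. It was at 99.3, 86.4 and 98.0 CPM in WT and at 27.3, 33.1 and 27.4 CPM in CKO. The lowest WT library was above the highest CKO library by more than the whole range within either genotype. The level was 3.23-fold lower in CKO (log2 fold change -1.69, SE 0.12, adjusted p = 0.000154). As a share of the 3 natriuretic receptors summed per kilobase, Npr3 went from 50.0% ± 0.956 to 23.7% ± 2.22 (SD, n = 3 each). An antisense gene, Gm5144, covers 3.42% of the exonic bases of Npr3, and the use of strand in counting is not stated.

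Pde5a (chr3:122728947-122859374), the cGMP-specific phosphodiesterase that sildenafil inhibits, was at 40.4, 37.9 and 49.3 CPM in WT and at 12.4, 11.4 and 10.9 CPM in CKO. The CKO libraries lay close together, far below WT, and WT replicate 3 was the highest. The fall was 3.68-fold (log2 fold change -1.88, SE 0.13, adjusted p = 0.000154). Pde9a, a cGMP-specific enzyme of high affinity, was read by 17, 19 and 30 counts in WT and by 3 counts in each CKO library. Like the 2 cyclase subunits, Pde9a passed the filter through WT alone. Its separation of genotypes is therefore not separate evidence either. Its summed counts, 66 against 9, gave a ratio of 5.93 (exact 95% interval 2.94 to 13.5), with a log2 fold change of -2.52 (SE 0.43, adjusted p = 0.00934). The call was lost without CKO replicate 1 (adjusted p = 0.0585) or CKO replicate 3 (0.0557), with log2 fold changes of -2.47 and -2.52. Antisense transcripts cover 8.34% of the exonic bases of Pde9a.

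The photoreceptor enzymes Pde6a, Pde6b and Pde6c were not tested. Pde6d, which carries prenylated proteins, was at 23.2, 20.7 and 15.1 CPM in WT and at 19.2, 19.6 and 23.1 CPM in CKO. These values overlapped (log2 fold change 0.071, SE 0.17, adjusted p = 0.850). The summed level of the cGMP-specific enzymes was 4.68 ± 0.732 CPM per kilobase in WT and 1.30 ± 0.073 in CKO (SD, n = 3 each), of which Pde5a made up most in both genotypes.

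**Figure D2:**
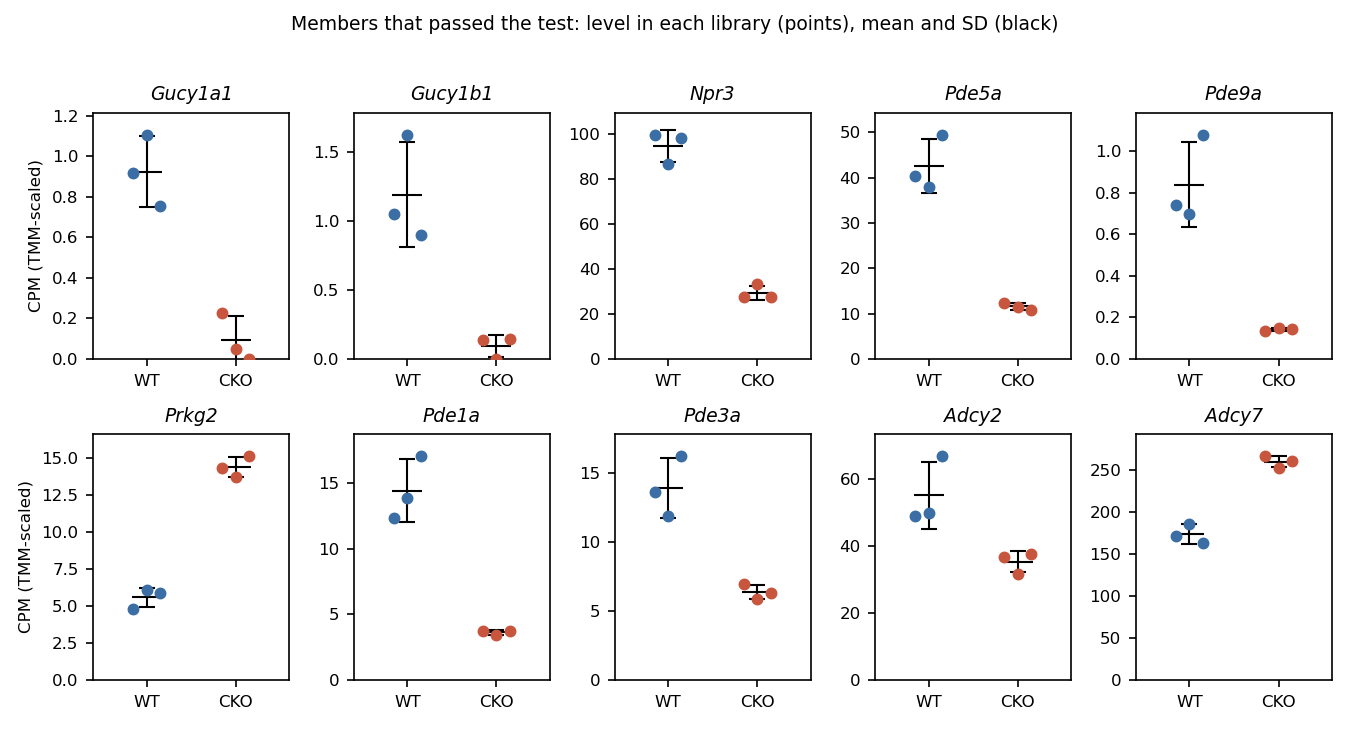
TMM-scaled CPM (vertical axis, from 0, with its own scale in each panel) of the 10 members that passed the test, in WT and CKO. Points are the 3 libraries of a genotype and the black marks their mean and SD, and in each panel the 2 sets of points do not overlap. For Gucy1a1, Gucy1b1 and Pde9a this follows from passing the filter through WT alone.

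Of the 2 kinase G genes, which read cGMP, Prkg2 rose and Prkg1 was not called. Prkg2, kinase G type 2, the membrane-bound form known from growth plate cartilage, was at 4.80, 6.06 and 5.84 CPM in WT and at 14.3, 13.7 and 15.1 CPM in CKO. Every CKO library exceeded the highest WT library by more than 7 CPM, and the rise was 2.58-fold (log2 fold change 1.37, SE 0.14, adjusted p = 0.000915). No annotated gene overlaps its exons. Prkg1, kinase G type 1, the soluble form of smooth muscle, was at 40.5, 42.4 and 46.5 CPM in WT and at 29.7, 36.6 and 32.4 CPM in CKO. These libraries did not overlap, but the gene was not past the threshold (log2 fold change -0.39, SE 0.11, adjusted p = 0.0821) until WT replicate 3 was left out (-0.33, adjusted p = 0.0159).

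The summed level of both kinases per kilobase was 5.01 ± 0.373 in WT and 5.71 ± 0.277 CPM per kilobase in CKO (SD, n = 3 each), with every CKO library above every WT library. Prkg2 made up 19.4%, 22.4% and 20.3% of this sum in WT replicates 1 to 3 and 49.4%, 43.2% and 48.5% in CKO replicates 1 to 3. In WT the type 1 kinase was the main transcript of this pair, and in CKO the pair was near parity.

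Of the 6 tested phosphodiesterases that hydrolyse both nucleotides, Pde1a and Pde3a fell and the other 4 were not called. Pde1a, which calcium and calmodulin activate, was at 12.3, 13.9 and 17.0 CPM in WT and at 3.69, 3.43 and 3.75 CPM in CKO. The fall was 3.97-fold (log2 fold change -1.99, SE 0.17, adjusted p = 0.00031), and its exons overlap no other gene. Its close relative Pde1b, the highest of these enzymes per kilobase, was at 27.9, 28.1 and 24.1 CPM in WT and at 32.0, 35.1 and 36.0 CPM in CKO (log2 fold change 0.36, SE 0.11, adjusted p = 0.0918). All CKO libraries were above all WT libraries, without passing the threshold.

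The Pde3 pair, which cGMP inhibits and which cuts mainly cAMP, also held a gene that fell. Pde3a was at 13.6, 11.9 and 16.2 CPM in WT and at 6.93, 5.87 and 6.30 CPM in CKO, a 2.18-fold fall (log2 fold change -1.12, SE 0.16, adjusted p = 0.00412). Antisense transcripts cover 5.82% of its exonic bases. Pde3b, the form known from fat cells, was at 17.6, 18.8 and 23.3 CPM in WT and at 21.2, 26.7 and 23.9 CPM in CKO, where the genotypes overlapped (log2 fold change 0.26, SE 0.14, adjusted p = 0.348).

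Pde10a had a log2 fold change of 0.64 (SE 0.17, adjusted p = 0.0648), with every CKO library above every WT library, and Pde1c of 0.38 (SE 0.31, adjusted p = 0.539). Pde11a and both IDs of Pde2a, whose exons overlap each other, were not tested. The summed level of the enzymes with both activities was 11.0 ± 0.455 in WT and 10.7 ± 0.603 CPM per kilobase in CKO, a difference smaller than the spread within either genotype.

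Over all 14 IDs whose enzymes can hydrolyse cGMP, the sum was 15.7 ± 1.16 in WT and 11.97 ± 0.575 CPM per kilobase in CKO (SD, n = 3 each). Pde5a went from 27.5% ± 1.88 to 9.87% ± 1.12 of it and Pde1a from 15.2% ± 1.51 to 5.05% ± 0.404. Pde1b went from 31.8% ± 4.80 to 53.2% ± 1.14 and Pde3b from 13.9% ± 1.06 to 21.9% ± 1.61. These shares are descriptions with no test, and within such a sum a lower share of some members raises that of the others.

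**Figure D3:**
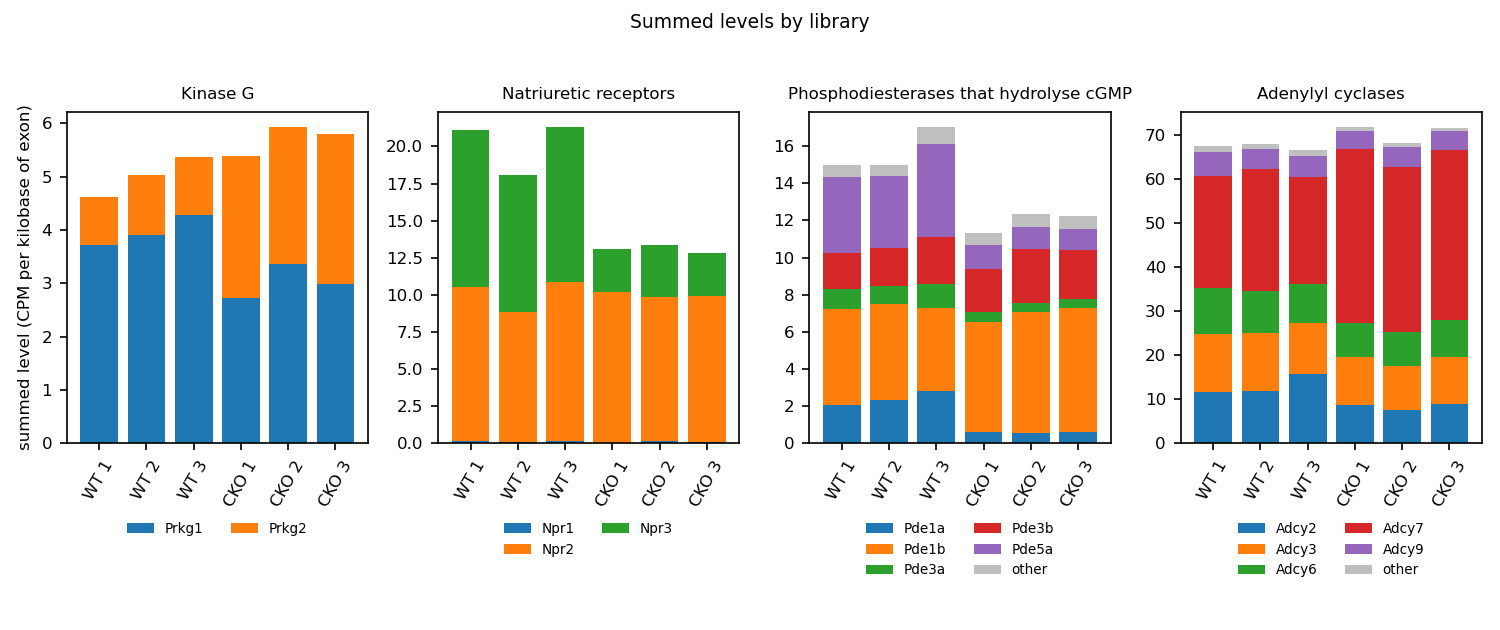
Level summed over genes (vertical axis, CPM per kilobase of exon, from 0) in each of the 6 libraries, for kinase G, the natriuretic receptors, the phosphodiesterases that hydrolyse cGMP and the adenylyl cyclases, with colours for genes. Prkg2 and Adcy7 take a larger part of their bars in the 3 CKO libraries, and Npr3, Pde5a, Pde1a and Adcy2 a smaller part.

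On the cAMP side, the calls were confined to adenylyl cyclases in the fit of all libraries. Adcy7, a cyclase of blood and immune cells that Gs and protein kinase C stimulate, had the highest level per kilobase of its family. It was at 172, 186 and 164 CPM in WT and at 266, 253 and 261 CPM in CKO. The genotypes were well apart, and the rise was 1.50-fold (log2 fold change 0.58, SE 0.087, adjusted p = 0.00544). Adcy2, a cyclase that G-protein beta-gamma subunits stimulate, was at 49.1, 49.9 and 66.8 CPM in WT and at 36.8, 31.7 and 37.6 CPM in CKO. It was 1.56-fold lower (log2 fold change -0.65, SE 0.14, adjusted p = 0.0322), with WT replicate 3 the highest library, and an antisense gene covers 4.49% of its exonic bases. The call of Adcy2 was lost without WT replicate 2 or any of the CKO replicates, with adjusted p-values of 0.0605, 0.124, 0.145 and 0.105, while the log2 fold change stayed between -0.71 and -0.57.

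Adcy4 narrowly missed the threshold, at 4.02, 2.24 and 3.91 CPM in WT and 1.67, 1.79 and 1.44 CPM in CKO (log2 fold change -1.05, SE 0.28, adjusted p = 0.0578). It passed with DESeq2 (adjusted p = 0.0248), with total-count scaling (0.0498) and without an expression filter (0.0350). The calcium-inhibited Adcy6 (-0.27, SE 0.095, adjusted p = 0.137) and the calmodulin-stimulated Adcy3 (-0.26, SE 0.098, adjusted p = 0.169) did not overlap between genotypes but were not past the threshold, and 22.1% of the exonic bases of Adcy3 lie under the antisense gene Cenpo. Adcy1, Adcy5, Adcy8 and Adcy9 had log2 fold changes between -0.69 and 0.46 with adjusted p-values of 0.280 or more, and the soluble, bicarbonate-sensing Adcy10 was not tested.

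The sum over the adenylyl cyclases was 67.5 ± 0.713 CPM per kilobase in WT and 70.7 ± 2.04 in CKO (SD, n = 3 each). Within it, Adcy7 went from 38.3% ± 2.12 to 54.7% ± 0.620 and Adcy2 from 19.5% ± 3.73 to 11.9% ± 0.756.

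Downstream of the cyclases, 0 of the 15 tested phosphodiesterases for cAMP, kinase A subunits and Epac genes were called by edgeR or by DESeq2, and 2 of them had an unadjusted p under 0.05. Pde8a, a phosphodiesterase of high affinity for cAMP and the highest of its group per kilobase, was at 56.4, 53.1 and 87.0 CPM in WT and at 56.7, 59.4 and 59.4 CPM in CKO. WT replicate 3 alone lay above the rest, and the log2 fold change was -0.16 (SE 0.18, adjusted p = 0.648). The other 6 tested enzymes of the group had log2 fold changes between -0.39 (Pde7a, adjusted p = 0.104) and 0.24 (Pde8b, adjusted p = 0.548), and Pde4c was not tested.

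Prkar1a, the type I regulatory subunit of kinase A, had the highest level per kilobase of all members. It was at 463, 455 and 413 CPM in WT and at 443, 430 and 416 CPM in CKO, with overlapping libraries (log2 fold change -0.046, SE 0.087, adjusted p = 0.799), and it made up 78.0% ± 1.33 and 77.9% ± 1.11 of the regulatory subunits per kilobase. The catalytic subunit Prkaca was at 88.2, 73.1 and 76.6 CPM in WT and at 71.0, 77.9 and 69.4 CPM in CKO (log2 fold change -0.12, SE 0.10, adjusted p = 0.549). Over the 6 kinase A subunits the log2 fold changes ran from -0.28 (Prkar2b, adjusted p = 0.212) to 0.18 (Prkar2a, adjusted p = 0.339). The Epac gene Rapgef3 was at 22.5, 18.7 and 18.6 CPM in WT and at 16.3, 19.5 and 18.2 CPM in CKO (log2 fold change -0.15, SE 0.13, adjusted p = 0.568), and Rapgef4 had a log2 fold change of 0.17 (SE 0.21, adjusted p = 0.696). The standard errors of these 15 log2 fold changes were at most 0.24.

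**Figure D4:**
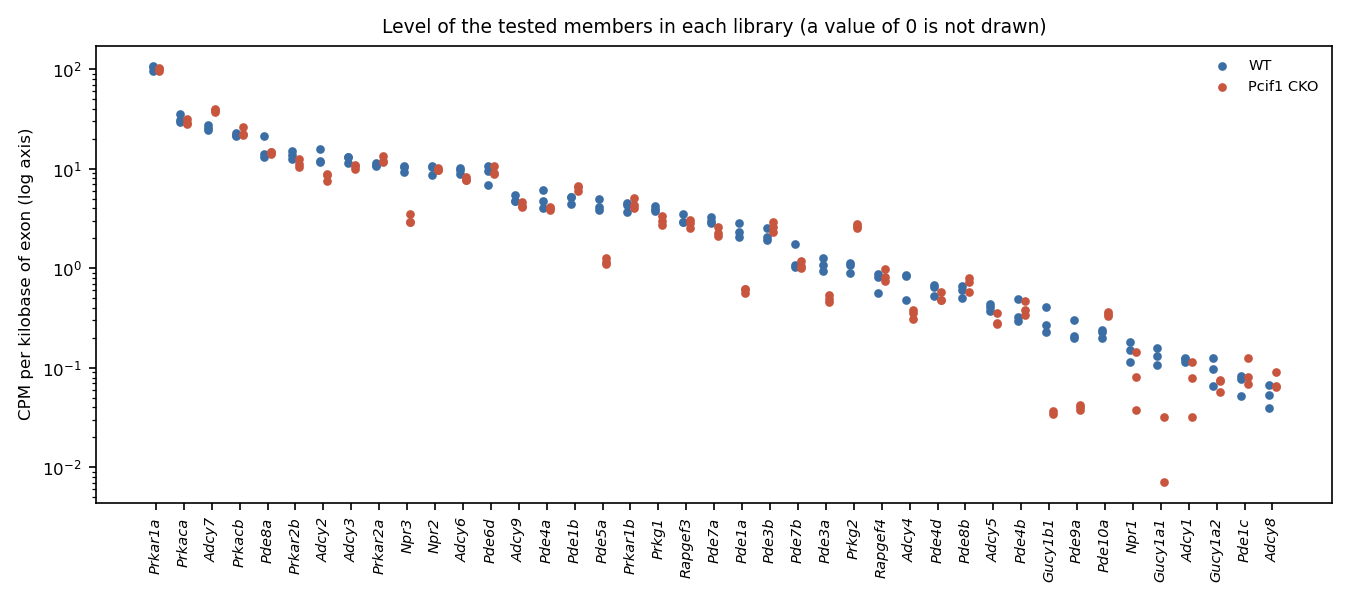
Level of the 41 tested members in each library (vertical axis, CPM per kilobase of exon, log scale), ordered from the highest to the lowest WT mean, with WT in blue and CKO in red. Prkar1a lies highest near 100 CPM per kilobase, and Gucy1b1, Pde9a and Gucy1a1 lie near the low end, where their red points fall well under the blue.

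Other genes of both pathways were read from lists of their inputs and outputs. Of 9 genes that supply cGMP signals 6 were in the count table, and of these only the protease gene Furin passed the filter (0.13, SE 0.082, adjusted p = 0.436). Nppb, Ostn and Nppc, the gene of C-type natriuretic peptide, had no row there, so their levels are not known. The nitric oxide synthase genes Nos1, Nos2 and Nos3 stayed at or below 0.441 CPM in every library, and Nppa, the gene of atrial natriuretic peptide, was read in a single CKO library. Of 7 tested kinase G targets and cGMP partners 0 were called by edgeR or DESeq2 and 1 had an unadjusted p under 0.05, namely Itpr1, the calcium release channel gene (-0.26, SE 0.085, adjusted p = 0.117). Pde6h came next (-0.84, SE 0.48, adjusted p = 0.370).

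Among 13 tested receptors that raise cAMP and Gs genes, 2 were lower in CKO, or 15.4%, and 1 higher, or 7.69%, against 4.51% and 2.88% of all genes tested. Pth1r, the receptor for parathyroid hormone, fell from 21.0, 18.8 and 14.9 CPM to 8.42, 6.27 and 8.95 CPM (log2 fold change -1.21, SE 0.19, adjusted p = 0.0061). Vipr2, a receptor for vasoactive intestinal peptide, fell by 0.94 on the log2 scale (SE 0.14, adjusted p = 0.00468), and the adenosine receptor gene Adora2b rose by 0.85 (SE 0.17, adjusted p = 0.0204). Adcyap1r1, a receptor for the peptide PACAP, had the largest log2 fold change of the list, 2.41 (SE 0.60, adjusted p = 0.0501), with every CKO library above every WT library. DESeq2 called it as well (adjusted p = 0.0024), for 4 calls in the list.

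Among 10 tested Gi genes and receptors that lower cAMP, 3 were lower and 0 higher, against the same 4.51% and 2.88%. Gnai1, an inhibitory G-protein subunit, was at 26.5, 24.9 and 23.6 CPM in WT and at 7.70, 9.61 and 8.90 CPM in CKO (log2 fold change -1.52, SE 0.13, adjusted p = 0.000322). Gnai2, another inhibitory subunit, was at 661 ± 49.6 and 658 ± 18.7 CPM (SD, n = 3 each; log2 fold change -0.0074, adjusted p = 0.976). The prostaglandin receptor gene Ptger3 fell by 2.02 (SE 0.31, adjusted p = 0.00566) and the sphingosine phosphate receptor gene S1pr1 by 0.89 (SE 0.16, adjusted p = 0.0124).

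Among 16 tested anchors and inhibitors of kinase A 1 was called in each direction, or 6.25% each way, against 4.51% and 2.88%: the anchor gene Akap12 fell by 0.85 on the log2 scale (SE 0.13, adjusted p = 0.00485) and the inhibitor gene Pkib rose by 0.54 (SE 0.13, adjusted p = 0.0442). Bves, which encodes a membrane protein that binds cAMP, had the largest log2 fold change of the list, -1.41 (SE 0.39, adjusted p = 0.0679), with every CKO library below every WT library, and was called by DESeq2 (adjusted p = 0.0272), for 3 calls. Of the 10 CREB family and co-activator genes 0 were called by edgeR and 1 by DESeq2, with 2 at an unadjusted p under 0.05, Crtc1 (-0.44, SE 0.12, adjusted p = 0.0612) and Crebbp (-0.49, SE 0.19, adjusted p = 0.172). Among 14 tested genes known as CREB targets 3 were higher, or 21.4%, against 2.88% of all genes tested, and 0 lower: Ptgs2, the inducible cyclooxygenase gene, rose by 2.15 (SE 0.24, adjusted p = 0.00124), Bdnf by 0.97 (SE 0.17, adjusted p = 0.0129) and Fos by 0.81 (SE 0.16, adjusted p = 0.0191). The other 11 did not pass, and 6 of the 14 had an unadjusted p under 0.05. The uncalled genes among these were Dusp1 (0.36, adjusted p = 0.0988), with every CKO library above WT, and Sik1 (-0.29, adjusted p = 0.182) and Id1 (-0.38, adjusted p = 0.185), with every CKO library below.

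Markers of cell types that a marrow culture can hold were read beside these results. Mesenchymal genes of the labelled cell type were present, with Prrx1 at 211 to 283 CPM in WT and 276 to 283 CPM in CKO. Of 9 tested mesenchymal and osteoblast genes Pdgfra, Sp7, Alpl and Ibsp were lower and Col1a1 and Col1a2 higher in CKO. These were 44.4% and 22.2%, against 4.51% and 2.88% of all genes tested. The list sums were 8024 to 10313 and 12857 to 13706 CPM, and the late osteoblast gene Bglap stayed at or below 0.249 CPM. Macrophage transcripts were abundant in both genotypes, with sums over 10 genes of 30079 to 32988 CPM in WT and 30591 to 33766 CPM in CKO. In the fit of all libraries edgeR called 0 of these 10 genes and DESeq2 called 2, with 3 at an unadjusted p under 0.05. Without WT replicate 3 edgeR called 4. The smallest p-values belonged to Itgam (log2 fold change 0.45, SE 0.12, adjusted p = 0.0645) and Cd14 (0.67, SE 0.19, adjusted p = 0.0718), whose CKO libraries all lay above WT, and then to Csf1r (-0.26, SE 0.090, adjusted p = 0.141), whose CKO libraries all lay below. Of the 10 log2 fold changes 6 were above 0 and 4 below.

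The adipocyte genes did not all go the same way. Adipoq, the adiponectin gene, was at 53.8, 42.9 and 44.3 CPM in WT and at 1.49, 0.697 and 0.289 CPM in CKO, and Plin1 was at 2.17 to 4.12 CPM in WT and read by no count in CKO. Of 5 tested adipocyte genes 4 were lower (Adipoq, Plin1, Cidec and Pparg), or 80%, against 4.51% of all genes tested. Plin1 and Cidec, however, passed the filter through WT alone and could only be called lower. The list sums were 151 to 158 and 96.8 to 117 CPM. Fabp4, the highest in CPM, lay above WT in every CKO library (0.46, adjusted p = 0.0545) and was called higher by DESeq2, which called all 5. Of 4 tested chondrocyte genes Comp and Col10a1 were lower, or 50%, against 4.51% of all genes tested. Col2a1 (0.69, SE 0.22, adjusted p = 0.111), with every CKO library above every WT library, and Sox9 (0.017, SE 0.22, adjusted p = 0.978) were not called by edgeR. DESeq2 called Col2a1 higher (adjusted p = 0.0424), for 3 calls in the list, with list sums of 41.7 to 54.0 and 33.9 to 40.7 CPM. edgeR called 0 of 8 smooth muscle genes and DESeq2 called 2, with list sums of 538 to 704 against 581 to 610 CPM. At an unadjusted p under 0.05 were 3 of them, Lmod1, Cnn1 and Des, each with every CKO library below every WT library. Of the 8 log2 fold changes 5 were below 0 and 3 above. edgeR called 0 of 6 endothelial genes and DESeq2 called 1, with list sums of 29.3 to 43.3 against 27.9 to 33.0 CPM. At an unadjusted p under 0.05 were 2 of these, Cdh5 with every CKO library below WT and Vwf with every CKO library above. The part of any of these cell types in the changes of the cyclic nucleotide genes was not tested.

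RefSeq promoter windows from 250 bases before to 50 after a start were matched to 42 members, 82 windows in all, among 27025 genes. The full element TGACGTCA, the same on both strands, lay in the windows of 1 of the 42 members, or 2.38%, against 2.03% of all genes and 3.43% of the tested genes with a window. The member was Prkar1a, which was not called, and its element begins 49 bases before an annotated start and is shown in capitals.
Prkar1a, plus strand, chr11:109650890-109650919: cgaggcgcatTGACGTCAgcagccgaacgc
The core TGACG or CGTCA, which the full element also contains, lay in 47.1% of the 34 tested members with a window against 34.6% of the tested genes, and in 4 of the 7 called members with a window: Gucy1b1, Adcy7, Npr3 and Pde1a. Pde3a, Pde9a and Prkg2 are called members without a window. Members have more windows per gene, 69 for 34 tested members against 13658 for 10686 tested genes, and a gene with more windows has more chances of a match. An annotated first A was held by 27 of the 69 windows of tested members, or 39.1%, against 29.5% of the windows of tested genes. At least 1 window with a first A was held by 3 of the 7 called members with a window, or 42.9%. These were Gucy1b1, Npr3 and Pde1a, and the 7 members had 13 windows. The same share per gene was 61.8% of the tested members and 34.1% of the tested genes with a window. A match of letters is a description of the annotation and not a bound or methylated site.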

How the data were processed

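Poly(A) RNA of MSC cultures after 7 days of osteogenic induction was sequenced in paired ends. The authors mapped reads to mm10 with HISAT2 and deposited raw counts per gene, without normalization. The counting tool, annotation and use of strand are not given in the sources used here. The design text speaks of duplicates, while labels and columns give 3 libraries per genotype. Of 20163 rows, 92 repeated an Ensembl ID with equal counts and were dropped.

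The quasi-likelihood test of edgeR 4.0.16 in R 4.3.3 (filterByExpr filter, then TMM scaling, glmQLFit and glmQLFTest) was run on genotype alone, and p-values were adjusted by Benjamini-Hochberg over the 13733 genes tested. A call is an adjusted p under 0.05. The standard error is the log2 fold change over the square root of F. Totals of 20258209 to 28227696 counts limit precision for genes read by few counts. Fits were tested on simulated counts. DESeq2 1.42.0, limma-voom (limma 3.58.1), other scalings, filters, thresholds, a replicate block and fits without each library were alternatives.

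Values in each library are given for every called member and for the member with the highest level per kilobase of each role. In the pathway lists the called genes and the 2 with the smallest p are named, and other members and genes named were chosen after their values were seen. Members, lists and tests were chosen with earlier results of these data known. Exons, positions and overlaps are from GENCODE M21 and promoter letters from RefSeq (GRCm38.p6).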

Additional observations from a re-analysis of the deposited data

How the results depend on the processing

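All 10 calls among the members remained with DESeq2, RLE or total-count scaling, limma-voom, both other filters and the replicate block, and Adcy4 joined them with DESeq2, total-count scaling and no filter. A threshold of 2-fold in addition left 1 higher member and 0 cAMP members, with Adcy7 and Adcy2 under that fold, and an adjusted p under 0.10 gave 4 higher members and 4 members acting on both nucleotides. Leaving out each library in turn gave 5 to 13 lower, 2 to 5 higher, 4 to 7 cGMP, 1 to 6 cAMP and 2 to 5 dual members called. The highest counts came without WT replicate 3 (13 lower, 5 higher, 6 cAMP, 5 dual) and the lowest count of lower members, 5, without CKO replicate 3. The cause was not tested. Calls in the lists moved too without WT replicate 3, when 10.4% of all genes were lower and 11.1% higher. Then edgeR called 6 of 13 receptors that raise cAMP and Gs genes and 3 of 10 CREB family and co-activator genes. It also called 4 of 16 anchors and inhibitors of kinase A, 5 of 14 CREB targets and 3 of 10 Gi genes. Same-numbered libraries correlated at 0.055, -0.045 and -0.013 in their deviations from the genotype means, and differently numbered ones at -0.041 to 0.049. These values show no pairing by replicate number but, with 3 libraries per genotype, cannot exclude a shared preparation. With the replicate block 8 members were lower and 2 higher, as without it, and among the list genes named in the text Pkib (adjusted p = 0.0891) and Pdgfra (0.0798) lost their calls and Adcyap1r1 (0.0231) gained a call. Log2 fold changes changed sign only in members that were not called. With limma-voom Npr2 was at 0.00055. Over the fits without each library in turn, Npr2 ran from -0.088 to 0.056, Pde6d from -0.083 to 0.21, Pde4b from -0.041 to 0.34, Pde8a from -0.29 to 0.099 and Pde7b from -0.40 to 0.039. Changes in members under about 1 CPM could be missed at this depth.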
